A study of Mus musculus with 6 samples.

Results

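SR proteins and hnRNPs are the main classes of RNA-binding proteins that decide which exons a cell keeps in its messenger RNA, and the data hold 31 protein-coding genes of these classes among the 49315 gene rows: 11 whose symbol starts with Srsf (SR) and 20 whose symbol starts with Hnrnp. They were chosen by symbol and by annotation as protein-coding, with earlier results of these data known. RNA was measured by poly(A)-selected sequencing in bone marrow of mice given the HFSC diet (HFSC as the labels write it) and hindlimb ischemia, in which surgery cuts the blood supply of one leg. Of the libraries, 3 were labelled miR-181a2b2-/- (KO, replicates 2, 3 and 4) and 3 were labelled miR-181a2b2flox/flox (flox; WT in the titles, replicates 1, 3 and 4). Diet and ischemia were shared by both groups; the labels give no age and no driver of the deletion. They do not say that libraries come from separate animals, so the p-values cover the spread among these samples alone, which may be technical.

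Each SR protein has an RNA recognition domain and a tail rich in arginine and serine. SR proteins usually bind exons and recruit the spliceosome, the machine that cuts out introns, while kinases and a phosphatase acting on the tail set where they are and what they bind. hnRNPs are a mixed class that coats new transcripts. They often oppose SR proteins at splice sites and also act in export, stability and translation of RNA. Many genes of both classes limit their own level through exons that send the transcript to decay, which counts per gene cannot show, because all transcript forms of a gene are summed. In bulk marrow, fewer cells of a type and less RNA per cell cannot be told apart.

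The deleted locus makes miR-181a and miR-181b, microRNAs that pair with messenger RNAs through the seed, bases 2 to 8. Their mature sequences (RefSeq, GRCm38.p6) are shown with the seed in capitals because matches to it were looked for in the members:
mmu-miR-181a-5p: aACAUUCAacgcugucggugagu
mmu-miR-181b-5p: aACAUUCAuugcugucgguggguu
The seed is the same in both. RefSeq places them on chromosome 2 in Mir181a-2 (38852741 to 38852763, plus strand) and Mir181b-2 (38853845 to 38853868, plus strand), and the same mature sequences also on chromosome 1 in Mir181a-1 and Mir181b-1, a locus that the labels do not name as deleted. The gene rows of Mir181a-2 and Mir181b-2 held 0 counts in the 3 KO and the 3 WT libraries, so these poly(A) counts give no check of the deletion.

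Of the 30 members tested, 0 passed the adjusted threshold of 0.05 (edgeR quasi-likelihood test, Benjamini-Hochberg over 16956 genes), against 2.46% of all genes tested (0.938% with higher and 1.52% with lower values in KO). Before adjustment 3 members had a p under 0.05, Srsf4, Hnrnpul1 and Hnrnpr, against 23.9% of all genes. All 3 were lower in KO, against 12.2% of all genes in that direction, and 0 members were higher, against 11.7%. DESeq2 and limma called 0 members each, against 9.68% and 4.64% of all genes. The count over all genes, 417, moved when a library was left out. It was 568, 920 and 32 without KO replicates 2, 3 and 4, and 33, 199 and 37 without WT replicates 1, 3 and 4. These fits also had fewer libraries, and the part of any single library was not tested. The median log2 fold change (KO minus WT) was 0.05 over the 10 tested SR members, -0.01 over the 20 hnRNP members and -0.01 over all genes tested. With library totals as the only scaling, which put the median of all genes at -0.08, these medians were -0.02 for SR and -0.083 for hnRNP. Of the SR members 7 had positive and 3 negative values, and of the hnRNP members 8 had positive and 12 negative values. The 95% intervals lay within 1.5-fold of WT in either direction for 30 of 30 tested members, against 47.6% of all genes tested and 79.0% of the 4428 genes with a mean at or above that of Srsf4, the lowest tested member by mean CPM (counts scaled by library total and TMM factor to a common library size). The lowest bound of any member was 0.689 times the WT level, for Srsf4, and the highest 1.30 times, for Srsf9.

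**Figure D1:**
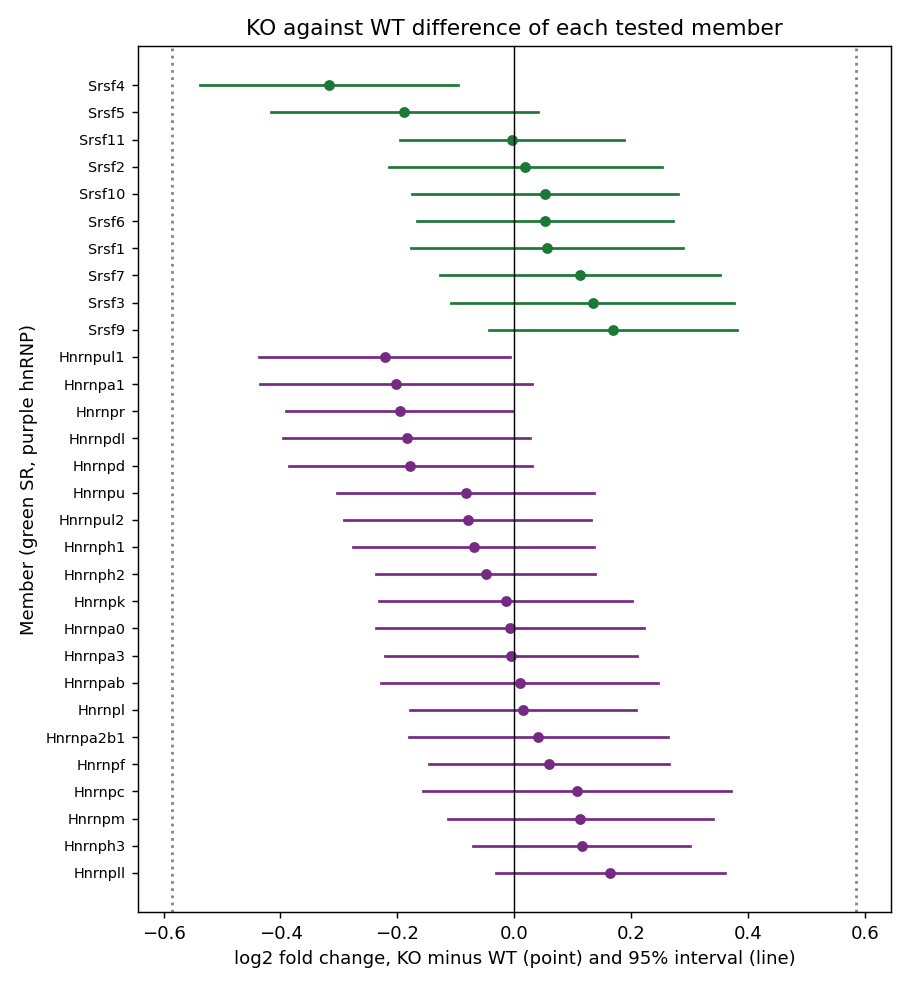
Log2 fold change (KO minus WT, x axis) of the 30 tested members with 95% intervals from edgeR; SR genes are green and stand above the hnRNP genes in purple, and dotted lines mark 1.5-fold. Every interval lies between the dotted lines, and only those of Srsf4, Hnrnpul1 and Hnrnpr leave out 0.

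The members were well covered, apart from Srsf12. The 30 tested genes had between 1418 counts (Srsf4, KO replicate 2) and 54172 counts (Hnrnpa2b1, WT replicate 4) per library, out of library totals between 33861440 and 40359093. Srsf12, which encodes a protein close to that of Srsf10, had 5, 7 and 11 counts in the KO libraries and 8, 6 and 6 in the WT libraries. It was the member that did not pass the filter on low counts, and it was low in both groups. Over all 6 libraries the log2 CPM of a member had a median SD of 0.10, against 0.16 over the 4428 genes at or above the level of Srsf4 and 0.23 over all genes tested.

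Levels of different genes were compared per kilobase of annotated exon, since longer genes collect more reads. This length joins the exons of all annotated transcripts of a gene and can exceed that of the transcripts present. The order of genes and the family medians on this scale therefore depend on the annotation. On this scale (CPM per kilobase) the hnRNP genes had a median of 65.8 and the SR genes of 45.6. Hnrnpa2b1, which binds purine-rich RNA and is known for export and sorting of RNAs, was the highest member with 209 ± 7.90 CPM per kilobase in KO and 203 ± 8.81 in WT (SD, n = 3 each). Before division by length it had 1359, 1336 and 1436 CPM in KO and 1403, 1319 and 1292 CPM in WT, and the groups overlapped. Hnrnpab followed with 194 ± 4.67 CPM per kilobase in KO and 193 ± 20.3 in WT, and Hnrnpa1, the classical exon-silencing hnRNP, with 146 ± 8.89 in KO and 168 ± 13.9 in WT. The means of Hnrnpa2b1 and Hnrnpab over the 6 libraries, 206 and 193.5 CPM per kilobase, differed by less than the spread between the WT libraries of Hnrnpab. Hnrnpab had 528, 537 and 554 CPM in KO and 598, 486 and 526 CPM in WT, so that WT replicates 1 and 3 lay on either side of all KO libraries. The leading SR genes were Srsf5, with 118 ± 11.4 CPM per kilobase in KO and 135 ± 1.40 in WT, Srsf2, with 120.1 ± 11.4 in KO and 118.5 ± 6.49 in WT, and Srsf1, with 82.9 ± 4.90 in KO and 79.7 ± 6.85 in WT. In KO the means of Srsf5 and Srsf2 differed by less than their spread. These 3 genes held 56.0% of the summed level per kilobase of the 11 SR genes. The leading 3 hnRNP genes held 33.6% of that of the 20 hnRNP genes. Because the families differ in size, these shares do not show which family was more concentrated in its leading genes. The lowest hnRNP gene on this scale was Hnrnpr, with 5.27 ± 0.211 CPM per kilobase in KO and 6.03 ± 0.402 in WT. Its annotated exons cover 22199 bases, and its longest annotated 3' UTR alone 19419 bases. Before division by length its mean was 117 CPM in KO and 134 in WT, above that of Hnrnph3 with 53.4 and 49.3.

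**Figure D2:**
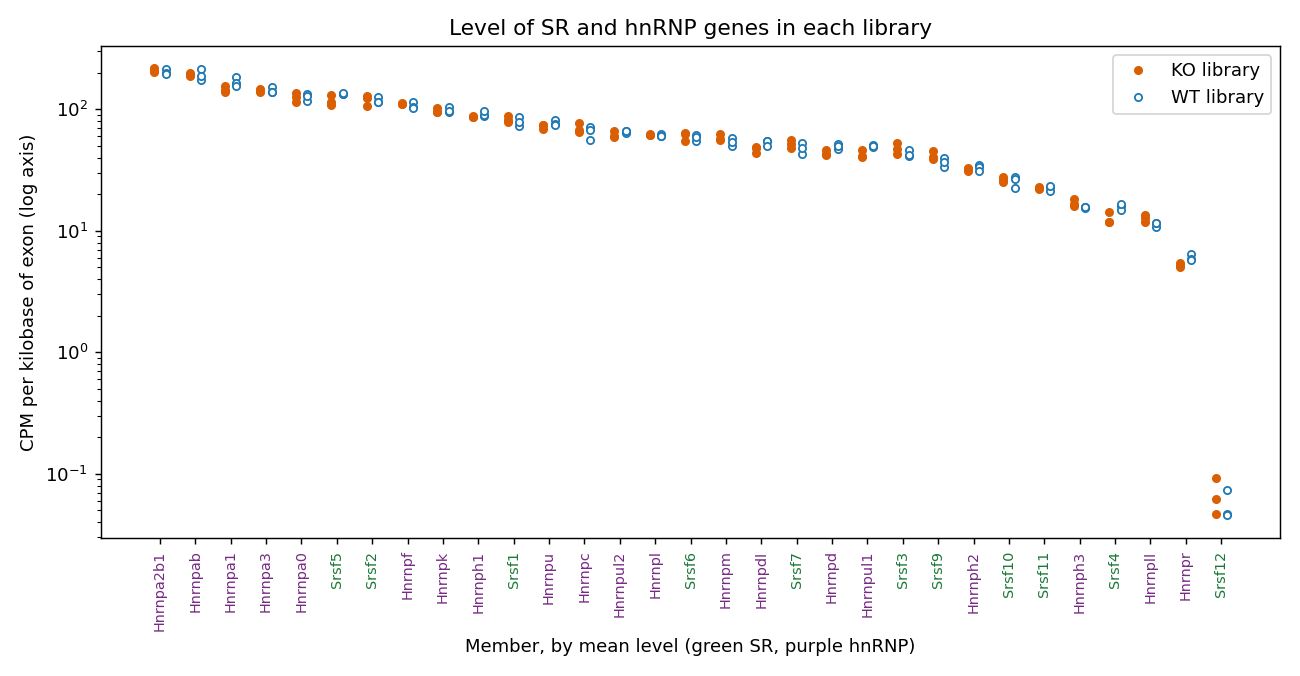
CPM per kilobase of annotated exon (y axis, log scale) of the 31 members, in order of their mean; filled orange points are the 3 KO libraries and open blue points the 3 WT libraries. Points of KO and WT lie close together along the whole order, and Srsf12 stands far below the other members.

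Srsf4, the SR protein with one of the longest arginine-serine tails (ENSMUSG00000028911, GRCm38 chromosome 4, 131873617 to 131901706, plus strand), stood furthest from 0. It had 42.1, 50.6 and 42.1 CPM in KO replicates 2, 3 and 4, against 56.6, 52.6 and 58.8 CPM in WT replicates 1, 3 and 4. The groups did not overlap, but KO replicate 3 lay close to WT replicate 3. The log2 fold change of Srsf4 was -0.32 ± 0.10 (SE), its 95% interval ran between -0.54 and -0.10, and it missed the threshold (edgeR adjusted p = 0.102). Without KO replicate 3 the value was -0.40 and passed (edgeR adjusted p = 0.0462), whereas over the other 15 alternatives the adjusted p was between 0.0526 and 0.312. Gm12992, a transcript on the opposite strand, shares 1532 exon bases with Srsf4 and had 2.02, 1.96 and 1.87 CPM in KO and 2.40, 2.185 and 2.53 CPM in WT. No source used here states whether the authors counted by strand, so reads of this pair cannot be told apart.

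Srsf5, an SR protein that promotes exon inclusion, had 520.6, 431 and 462 CPM in KO, against 533, 534 and 543 CPM in WT. The KO libraries all lay below the WT libraries, KO replicate 2 only by a little, and the log2 fold change was -0.19 ± 0.10 (SE; edgeR adjusted p = 0.294). Srsf9, a small SR protein, lay at the other end, with 64.6, 66.7 and 74.6 CPM in KO and 66.2, 55.9 and 61.1 CPM in WT. WT replicate 1 lay above KO replicate 2, so the groups overlapped, and the log2 fold change was 0.17 ± 0.095 (SE; edgeR adjusted p = 0.307). It was 0.03 when the trend of each library on exon length and GC content was removed.

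Srsf3 and Srsf7, which also help to export messenger RNA from the nucleus, had log2 fold changes of 0.13 ± 0.11 and 0.11 ± 0.11 (SE). The highest library of both was KO replicate 4 and the lowest WT replicate 3, with overlap between the groups. Without KO replicate 4 the values were 0.06 for Srsf3 and 0.05 for Srsf7, and with the length and GC trend removed 0.22 and 0.04. The other 5 tested SR genes lay between -0.004 and 0.06. They were Srsf1, which binds purine-rich exonic enhancers, Srsf2, the nuclear-speckle SR protein mutated in human myeloid neoplasms, Srsf6, Srsf10, known as a repressor of splicing when its tail is dephosphorylated, and Srsf11. Srsf1 had 468, 448 and 504 CPM in KO and 497, 420 and 449 CPM in WT, and Srsf2 had 370.4, 316.5 and 379 CPM in KO and 373, 342 and 337 CPM in WT. In both genes the groups overlapped.

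Libraries differed in SR genes across the genotypes. WT replicate 3 was the lowest library for 7 of the 10 tested SR members and KO replicate 4 the highest for 6. Relative to the WT mean of each gene, the median log2 difference over the tested SR members was 0.08, -0.03 and 0.12 in KO replicates 2, 3 and 4 and 0.10, -0.09 and 0.01 in WT replicates 1, 3 and 4. KO replicate 3 and WT replicate 3 were thus the low library of their own group. The summed SR level was 2642 ± 167 CPM in KO and 2625 ± 139 CPM in WT (SD, n = 3 each).

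In 9 of the 30 tested members the KO and WT libraries did not overlap, against 29.1% of all genes tested. Among the 20 hnRNP genes 5 had all KO libraries below all WT libraries and 2 had them above, and among the 10 SR genes 2 had them below and 0 above. Over all genes tested the shares were 14.7% below and 14.4% above. Hnrnpul1, a relative of Hnrnpu with a role in the response to DNA breaks (chromosome 7, 25721165 to 25754757, minus strand), had 358, 401 and 351 CPM in KO, against 422, 443 and 430.0 CPM in WT. KO replicate 3 was again the KO library nearest to WT. The log2 fold change was -0.22 ± 0.10 (SE; unadjusted p = 0.0438 and adjusted p = 0.196 in edgeR), and -0.07 with the length and GC trend removed.

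Hnrnpr, a relative of Syncrip that binds messenger RNA in nucleus and cytoplasm (chromosome 4, 136310942 to 136359447, plus strand), had 112.5, 122 and 116 CPM in KO, against 144, 129.5 and 128 CPM in WT. WT replicate 1 stood above the other libraries. The log2 fold change was -0.20 ± 0.09 (SE; unadjusted p = 0.0480 and adjusted p = 0.204 in edgeR), but it was 0.09, with the opposite sign, with that trend removed. Hnrnpdl, a relative of Hnrnpd, had 233, 210.4 and 236 CPM in KO and 266, 266 and 240.4 CPM in WT, with a log2 fold change of -0.18 ± 0.09 (SE; edgeR adjusted p = 0.265).

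Hnrnpa1 had 435, 455 and 491 CPM in KO and 578, 519 and 492 CPM in WT. KO replicate 4 and WT replicate 4 nearly met, and the log2 fold change was -0.20 ± 0.10 (SE; edgeR adjusted p = 0.265). Of the words of 50 bases in its longest coding transcript, 46.4% also occur in transcripts of other genes, mostly pseudogenes, and no source used here says how such reads were counted, so this value is uncertain. Hnrnpd (also called AUF1), which binds AU-rich elements and marks messenger RNAs for decay, had 343, 309 and 315 CPM in KO and 379, 349 and 366 CPM in WT, with a log2 fold change of -0.18 ± 0.09 (SE; edgeR adjusted p = 0.275) and of -0.10 with the length and GC trend removed. The log2 fold changes of Hnrnpa2b1, Hnrnpa3, Hnrnpa0 and Hnrnpab, the other members of A or B type, lay between -0.01 and 0.04.

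The 2 hnRNP genes with all KO libraries above WT were Hnrnpll and Hnrnph3. Hnrnpll, known in mouse lymphocytes for the splicing of the CD45 transcript, had 139, 149 and 158 CPM in KO and 126, 135.5 and 137 CPM in WT, with a log2 fold change of 0.16 ± 0.09 (SE; edgeR adjusted p = 0.285) and of 0.32 with the length and GC trend removed (edgeR adjusted p = 0.0728). Hnrnph3 had 57.7, 50.3 and 52.2 CPM in KO and 49.4, 48.9 and 49.7 CPM in WT, and a log2 fold change of 0.115 ± 0.08 (SE; edgeR adjusted p = 0.427), or 0.04 with that trend removed. The log2 fold changes of the other members of the F and H group, Hnrnpf, Hnrnph1 and Hnrnph2, which bind runs of G, lay between -0.07 and 0.06.

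The remaining hnRNP genes were Hnrnpc, which binds uridine tracts, Hnrnpm, Hnrnpk, which binds C-rich RNA, Hnrnpl, which binds CA repeats, Hnrnpu, a nuclear matrix protein, and Hnrnpul2. Their log2 fold changes ran from -0.08 (Hnrnpu) to 0.11 (Hnrnpm), and their groups overlapped. With the length and GC trend removed Hnrnpu had the opposite sign, at 0.07, and Hnrnpm was at 0.23. Over all 30 tested members 9 had the opposite sign in that fit, and 0 were called. Hnrnpl had the smallest spread of all tested members, with 365.5, 363 and 370.5 CPM in KO and 372, 359 and 357 CPM in WT, an SD of 0.02 on the log2 scale over all 6 libraries. Hnrnpm shares 1169 exon bases with March2 on its own strand, and March2 had 171, 125 and 122 CPM in KO and 220.2, 134.5 and 181 CPM in WT.

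**Figure D3:**
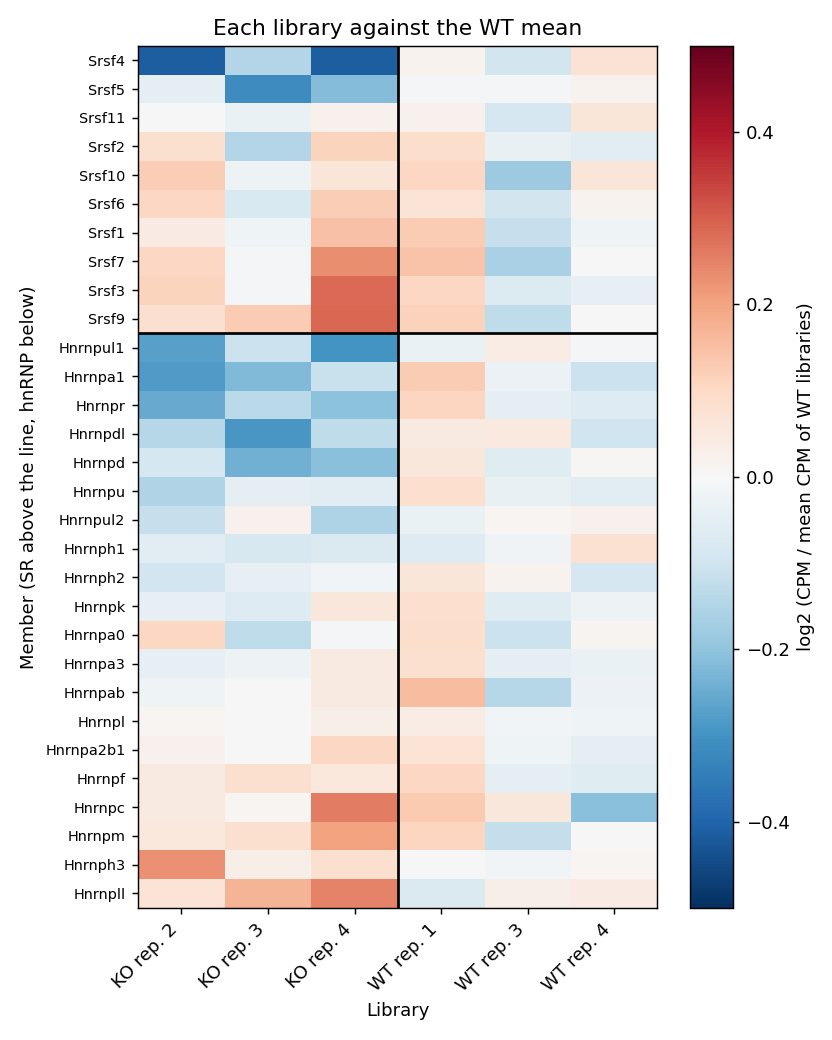
Log2 of the CPM of each of the 30 tested members over the mean of the WT libraries (colour), for the KO libraries on the left and the WT libraries on the right; SR genes stand above the horizontal line and hnRNP genes below. Srsf4 is low in KO replicates 2 and 4 and less so in KO replicate 3, while many SR genes are pale or blue in WT replicate 3 and red in KO replicate 4.

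The families were then set against each other. The summed hnRNP level was 8634, 8690 and 8987 CPM in the KO libraries and 9387, 8753 and 8773 CPM in the WT libraries, with WT replicate 1 above the others. The ratio of the SR sum to the hnRNP sum was 0.314, 0.282 and 0.308 in KO replicates 2, 3 and 4 and 0.2945, 0.284 and 0.299 in WT replicates 1, 3 and 4. Its mean was 0.301 ± 0.0167 in KO and 0.293 ± 0.00774 in WT (SD, n = 3 each), a difference smaller than the spread between the KO libraries. The difference between the family medians of the log2 fold change, 0.05 for SR and -0.01 for hnRNP, is a description and was given no test. When single libraries were left out, the SR median ran between 0.001, with WT replicate 3 left out, and 0.106, with KO replicate 3 left out. The hnRNP median ran between -0.051, with WT replicate 3 left out, and 0.031, with WT replicate 1 left out.

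Matches to the miR-181 seed were listed next. An 8mer is TGAATGTA, a 7mer either TGAATGT or GAATGTA outside an 8mer, on the transcript strand of the longest annotated 3' UTR (GENCODE M21). Such a match was found in 9 of 30 tested members (30.0%) and in 23.1% of all 13697 tested coding genes with a 3' UTR, and an 8mer in 2 members and in 5.93% of all. The members' 3' UTRs had a median length of 1304.5 bases, against 1155 bases. Both 8mers lay in SR genes. They are shown with the match in capitals and 14 bases before it, and with the 7mers of Hnrnpd and Hnrnpu as examples of the weaker class:
Srsf1: tttattgagcaaaaTGAATGTA
Srsf7: aaatattgttttgtTGAATGTA
Hnrnpd: ttaatgctaataccTGAATGT
Hnrnpu: ttagtctgtccatgTGAATGT
The Srsf1 match is on chromosome 11 (88053499 to 88053506, plus strand) and the Srsf7 match on chromosome 17 (80201378 to 80201385, minus strand). The Hnrnpd match shown is on chromosome 5 (99956496 to 99956502, minus strand) and the Hnrnpu match on chromosome 1 (178325297 to 178325303, minus strand), all in GRCm38. The log2 fold changes of Srsf1 and Srsf7 were 0.06 ± 0.10 and 0.11 ± 0.11 (SE), with 95% intervals up to 0.29 and 0.35, and neither passed (edgeR adjusted p = 0.778 and 0.559). Hnrnpr held 5 matches of 7 bases along its 3' UTR of 19419 bases, Hnrnpc and Hnrnpd 2 each, and Hnrnph1, Hnrnpk, Hnrnpu and Hnrnpul2 1 each. The median log2 fold change was -0.07 over the 9 members with a match and 0.01 over those without, against -0.05 and 0.02 over all such genes. A match describes the sequence and does not show binding.

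Other genes of the splicing pathway were read from lists that do not use the Srsf and Hnrnp symbols. In edgeR and in limma 0 genes of any of the 5 lists passed the threshold. Of all genes tested, DESeq2 called 9.68%, and 11.7% were higher and 12.2% lower at an unadjusted p under 0.05. Of 10 genes that phosphorylate, dephosphorylate or import SR proteins, 1 was higher and 1 lower at an unadjusted p under 0.05, and the median log2 fold change was -0.01. Ppp1ca, a catalytic subunit of protein phosphatase 1, had 514, 506 and 545 CPM in KO and 430, 432 and 420 CPM in WT, a log2 fold change of 0.29 ± 0.09 (SE; edgeR adjusted p = 0.105). The kinase genes Srpk1, Srpk2, Clk1, Clk2, Clk3 and Clk4 lay between -0.08 and 0.10, and the kinase gene Dyrk1a at -0.16. Prpf4b, also a kinase gene, was the lower one, with a log2 fold change of -0.29 ± 0.10 (SE; edgeR adjusted p = 0.116). It had 103, 123 and 106 CPM in KO and 140, 126 and 140 CPM in WT, with all KO libraries below WT. DESeq2 called 1 gene of this list, which was higher.

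Of 21 SR-related genes, whose products carry arginine-serine stretches but are not classical SR proteins, 1 was higher and 8 lower at an unadjusted p under 0.05, against 11.7% and 12.2% of all genes, with a median of -0.16. DESeq2 called 3 of them, all lower, against 9.68% of all genes. Without KO replicate 3, and also with no filter on low counts, edgeR called 2, both lower. Over all genes these fits called 920 and 1492, against 417 with all libraries and the filter. Srrm1, a splicing coactivator, had the smallest p, with 211, 216 and 199 CPM in KO and 255, 251 and 265 CPM in WT (log2 fold change -0.30 ± 0.09, SE; edgeR adjusted p = 0.0870). KO replicates all lay below WT. Srrm2, a large scaffold protein of nuclear speckles, had 456, 625 and 432 CPM in KO and 659, 726 and 733 CPM in WT, with KO replicate 3 nearest to WT as for Srsf4 (log2 fold change -0.485 ± 0.14, SE; edgeR adjusted p = 0.0951).

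Of 19 genes of hnRNP proteins under other symbols, 1 was higher and 3 lower at an unadjusted p under 0.05, with a median of -0.05, and DESeq2 called 1, which was lower. These counts lie near or below the shares of all genes, 11.7% higher, 12.2% lower and 9.68% called by DESeq2.

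The core spliceosome lists had medians of opposite sign. Of 25 genes of U1 and U2 recognition and Sm proteins, 4 were higher and 0 lower at an unadjusted p under 0.05, against 11.7% and 12.2% of all genes, with a median of 0.13. Sf3b5, a small subunit of the complex that recognises the branch point, had the smallest p, at 51.3, 50.7 and 64.1 CPM in KO and 48.8, 41.5 and 38.6 CPM in WT (log2 fold change 0.37 ± 0.12, SE; edgeR adjusted p = 0.118). Of 22 genes of U5, the tri-snRNP and the catalytic steps, 0 were higher and 3 lower, against the same shares of all genes, with a median of -0.06. Prpf8, the large protein at the heart of the spliceosome, had 290.4, 423 and 323 CPM in KO and 461, 483.5 and 459 CPM in WT (log2 fold change -0.44 ± 0.14, SE; edgeR adjusted p = 0.106). DESeq2 called 0 genes of the first of these lists and 2 of the second, both lower, against 9.68% of all genes. Without KO replicate 3 edgeR called 3 genes of the second list, all lower. With no filter on low counts it called 1 of the first, higher, and 3 of the second, lower. Over all genes these 2 fits called 920 and 1492, against 417 with all libraries and the filter.

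Exon length was set beside the list medians. The annotated exons had a median of 8340.5 bases in the kinase, phosphatase and importer list, 8000 in the SR-related list, 5907 in the list of hnRNP proteins under other symbols, 5171 in the U5 list and 2857 in the list of U1 and U2 recognition and Sm proteins. In the same order, the median log2 fold changes were -0.01, -0.16, -0.05, -0.06 and 0.13. The part of exon length in these medians was not tested. Spearman's rho between exon length and log2 fold change was -0.15 over the 30 members, -0.40 over the 127 members and list genes tested, and -0.23 over 16919 genes tested. These points share the same 6 libraries. In the fit without the trend on length and GC content, the medians were 0.12 for the kinase, phosphatase and importer list, -0.02 for the SR-related list, 0.04 for hnRNP proteins under other symbols, 0.001 for the U5 list and 0.08 for U1 and U2 recognition and Sm proteins. Those of the SR and hnRNP members were 0.05 and 0.01.

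**Figure D4:**
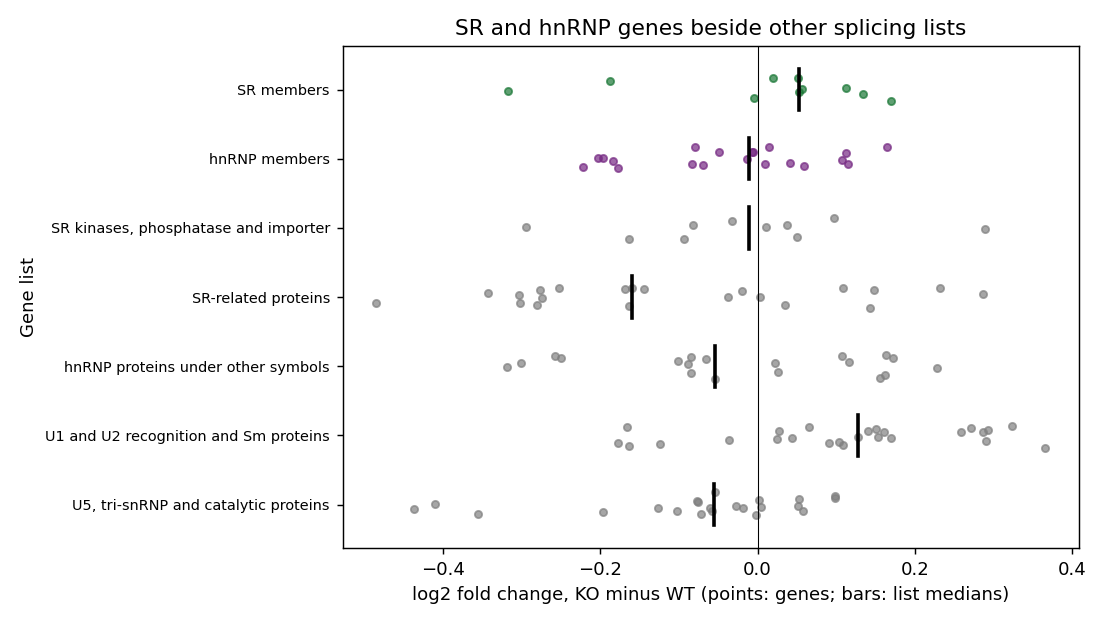
Log2 fold changes (KO minus WT, x axis) of the genes of each splicing list, with a black bar at the list median; SR members are green and hnRNP members purple. The bar of the SR-related list lies at -0.16 and that of the U1, U2 and Sm list at 0.13, with the bars of the SR and hnRNP members between them.

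Markers of marrow cells were read from the same libraries. Of all genes tested, 2.46% passed the threshold in edgeR, 0.938% higher and 1.52% lower in KO. The summed level of 12 neutrophil markers lay between 67711 and 82804 CPM in KO and between 45664 and 56977 CPM in WT, with 3 of 12 past the threshold and higher. That of 8 B cell markers lay between 100.3 and 308 CPM in KO and between 246 and 385 CPM in WT, with 0 past the threshold, and that of 8 erythroid markers between 11662 and 20654.5 CPM in KO and between 12210 and 27876 CPM in WT, with 1 past it and lower. The sum of 8 monocyte and macrophage markers lay between 1654 and 1930 CPM in KO and between 1385 and 1627 CPM in WT, with 1 past the threshold higher and 1 lower. That of 6 T and NK cell markers lay between 113.6 and 138.7 CPM in KO and between 90.02 and 109.9 CPM in WT, with 0 past it. The neutrophil, monocyte and macrophage, and T and NK cell sums did not overlap between the groups, whereas the B cell and erythroid sums did. Of all single genes tested, 29.1% did not overlap, and no such share was computed for sums. Sums weigh abundant markers most. The median log2 fold change of the tested markers was 0.56 for neutrophils, -0.02 for monocytes and macrophages and -0.006 for T and NK cells. It was -0.835 for B cells and -0.46 for erythroid cells. Of 10 immediate early genes, which react fast to stimulation and handling, 9 passed the threshold and were lower, at a sum of 1653 to 2263 CPM in KO and 4420 to 5587 CPM in WT. None of these lists had a marker at 0 in all libraries, and their part in the values of the splicing factors was not tested. The markers of neutrophils, red cells and B cells are those of marrow, whereas the extraction label names white adipose tissue, and 6 adipocyte markers summed to between 24.5 and 40.3 CPM in KO and between 16.8 and 26.5 CPM in WT. Xist was above 1 CPM in KO replicate 2 and in WT replicates 3 and 4, and 0 members were called with this split as a covariate.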

How the data were processed

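The deposited table holds raw counts of reads per gene for 6 libraries, as the authors made them. The submitters' processing notes name Trimmomatic 0.36, STAR 2.5.2b, featureCounts, Subread 1.5.2 and GRCm38. No source used here states their settings, the use of strand or the handling of reads with several matches. Symbols from GENCODE M21 (GRCm38) were found for 49056 of 49315 identifiers. Counts were tested with edgeR 4.0.16 (R 4.3.3) with TMM scaling, filterByExpr and a robust two-sided quasi-likelihood test. The p-values were adjusted by Benjamini-Hochberg over all genes tested at a threshold of 0.05. The procedure was tested on simulated data, in which genes varied independently of each other. That simulation does not cover shifts shared by many genes of a library. The chi-square per gene was at least 30.3 between any pair of libraries. It was 33.3 between KO replicate 3 and WT replicate 3, and 40.7 and 35.35 between KO replicate 3 and KO replicates 2 and 4. Between KO replicate 3 and WT replicates 1 and 4 it was 100.3 and 62.6. CPM divides counts by the library total over tested genes times the TMM factor.

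The members and lists were chosen with earlier results of these data known. Values per library are given for the 3 highest members, the lowest and the 3 with the smallest p in each family, and for the gene with the smallest p in each list, except 1 gene that is not reported here. Other genes were named after their values were seen. Alternatives were other scalings and filters, DESeq2 1.42.0, limma 3.58.1, a replicate block, each library left out, abundant genes left out, removal of the length and GC trend (mgcv 1.9.3) and the split by Xist as a covariate. Of the members, 10 share over 25% of their words of 50 bases with other genes and 14 share exon bases with another gene, which makes their counts less certain.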

Additional observations from a re-analysis of the deposited data

How the results depend on the processing

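Over 16 alternative settings and 480 tests of members, 1 call was made, for Srsf4 without KO replicate 3. The number of SR members called was 0 to 1 when a library was left out, and that of hnRNP members 0 in all settings run. The hnRNP median was -0.083 and the SR median -0.02 with library totals as the only scaling, under which the median of all genes tested was -0.08. A sign unlike the reported one appeared in at least 1 setting for 16 members, all with values of at most 0.20 in size and none called. Over all genes 417 were called, against 1641 by DESeq2, 786 by limma, 1492 without the filter and 209 with the Xist covariate. Leaving out a library gave 32 (KO replicate 4) to 920 (KO replicate 3) calls, with 568 without KO replicate 2 and 33, 199 and 37 without WT replicates 1, 3 and 4. Of the 417 calls 38.1% were higher in KO, against 17.8% of the calls with library totals as the only scaling and 52.2% of those with DESeq2. The replicate numbers 3 and 4 occur in both groups, but no label says that they pair libraries, so they were not taken as pairs. Deviations of same-numbered libraries correlated at 0.21 and -0.14. With the replicate number as a block, WT replicate 1 and KO replicate 2 each stood alone, so the KO effect rested on replicates 3 and 4. In that fit 571 genes and 0 members were called, with medians of 0.07 for SR and 0.02 for hnRNP. The cause of these shifts was not tested. With 3 libraries a group, differences that lie within a member's 95% interval could not be resolved.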
